A study of Homo sapiens with 15 samples.

Results

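WNT ligands, their frizzled receptors and the SFRP and DKK secreted inhibitors were followed in RNA from human induced pluripotent stem cells (hiPSCs), from the retinal organoids (ROs) made from them and from Müller glial cells cultured out of those organoids (iMGCs). The members were taken by symbol alone, and 37 of the 19684 genes listed in the tables matched: 19 WNT ligands, 10 frizzled receptors and 8 inhibitors (4 SFRP and 4 DKK genes). All came from 1 line, BC1-GFP, an established hiPSC line that carries a GFP reporter and is given as wild type. The 5 groups were undifferentiated hiPSCs grown in mTeSR1 on Matrigel, the neural retina (NR) layers taken from ROs after 70 days (D70-ROs) or 150 days (D150-ROs) of differentiation, and iMGCs grown from D150-RO NR layers in serum-containing DMEM on Matrigel and collected on the fifth day of passage 1 (P1) or passage 5 (P5). Each group had 3 libraries of poly(A) RNA. The labels of the samples give 3 independent experiments per group, whereas the text for the whole series gives 2 for hiPSCs and ROs, so the p-values below measure the spread between these libraries, which may be partly technical. The series text also names 2 sequencing companies and a batch correction, but not the libraries concerned, and batch and group cannot be told apart here.

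WNT proteins are secreted lipid-modified ligands. They bind frizzled receptors, which signal through β-catenin and TCF/LEF factors when an LRP co-receptor takes part, or through β-catenin-independent routes, such as planar cell polarity, with ROR or PTK7 co-receptors. SFRP proteins bind WNT ligands outside the cell, and most DKK proteins act on the LRP co-receptors. In the developing eye, WNT signalling takes part in patterning the optic cup and in keeping the margin of the retina and the pigment epithelium apart from the NR, and in adult animals it has been linked to the response of Müller glia to injury.

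FPKM, the authors' level per transcript length and sequencing depth, served to compare levels, including levels between genes. Fold changes came from the expected counts, RSEM's estimate of reads per gene, tested with edgeR's quasi-likelihood test. A gene was called when its Benjamini-Hochberg adjusted p over all genes tested was below 0.05 and its change at least 2-fold. Library totals lay between 11349600 counts (D70-RO replicate 2) and 20398755 counts. FPKM summed to 387551 to 406276 per D150-RO library and to 518652 to 570482 per hiPSC or D70-RO library, and the scales therefore differ: from D150-ROs to P1 iMGCs the median log2 change of all genes was -0.07 in the count fit and -0.55 on log2(FPKM + 1), and from hiPSCs to D150-ROs it was -0.02 and 0.24.

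The labels were checked against marker genes. hiPSC libraries held 1924 to 2150 FPKM of POU5F1, D70-ROs 122 to 163 FPKM of the retinal progenitor gene SIX6, and D150-ROs 29.6 to 36.9 FPKM of RLBP1, a Müller glia gene. In the iMGC libraries RLBP1 was at 0 to 0.09 FPKM, SLC1A3 at 0.36 to 1.23 and SOX9 at 3.47 to 5.48, while VIM reached 2141 to 2901. GLUL, another gene of the Müller glia list, was at 12.25 to 15.2 FPKM there against 97.6 to 102 in D150-ROs. The summed FPKM of 6 mesenchymal markers was 2201 to 2308 in P1 and 2476 to 2726 in P5 against 20.4 to 23.9 in D150-ROs. COL1A1 alone held 1946 to 2053 FPKM in P1. TWIST1 was at 1.74 to 2.19 FPKM in P1, and PRRX1 at 0 to 0.03 there, not above its 0 to 0.18 in D150-ROs. In P5 TWIST1 was at 2.93 to 3.66 FPKM and PRRX1 at 1.48 to 2.11, above its level in D150-ROs. The summed FPKM of 5 photoreceptor markers was 0.11 to 0.56 in the iMGCs against 675 to 681 in D150-ROs. D70-ROs held 50.7 to 54.6 FPKM of the photoreceptor markers. The sum of 5 pigment epithelium markers was 82.9 to 133 FPKM at day 70, 5.59 to 6.13 at day 150 and 119.6 to 137.8 in hiPSCs. PMEL alone was at 79.9 to 129.6 FPKM at day 70, 1.27 to 1.31 at day 150 and 119 to 137 in hiPSCs. From day 70 to day 150 mean BEST1 went from 1.51 to 2.87 FPKM, MITF from 1.07 to 1.51 and RPE65 from 0.043 to 0.097. TYR went from 0.32 to 0. The sum of 4 proliferation markers was 75.5 to 111 FPKM at day 70 and 27.6 to 39.3 at day 150. The part of these markers' cells in the differences between D70-ROs and D150-ROs was not tested. The markers of the iMGC libraries thus go only partly with the name iMGC, which is kept here as the name of the cultures. The part of this change of cells in the differences between D150-ROs and iMGCs was not tested, and in bulk RNA fewer cells of a type and less RNA per cell cannot be told apart.

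In every group 13 to 16 of the 37 members had a mean of at least 1 FPKM, 19 had it in at least 1 group, and 18 stayed below it in all groups, with 1.09 FPKM of WNT4 in an hiPSC library as their highest value. From hiPSCs to D70-ROs, 23 members passed the filter on low counts, and 10 were called higher and 9 lower, where 46.0% of all genes tested were called, 23.5% higher and 22.5% lower (7 higher and 4 lower on log2(FPKM + 1)). Between D70-ROs and D150-ROs 1 was called higher and 8 lower of 20 tested, against 34.7% of all genes, 17.4% in each direction (2 and 6 on log2(FPKM + 1), 2 and 7 on log2(FPKM + 0.1)). D150-ROs against hiPSCs, a comparison that shares its libraries with the previous ones, gave 10 higher and 10 lower of 24 tested, against 59.9% of all genes, 30.3% higher and 29.6% lower (9 and 5 on log2(FPKM + 1), 7 and 11 with a trend on transcript length removed). P1 iMGCs against D150-ROs gave 8 higher and 6 lower of 19 tested, against 46.4% of all genes, 20.4% higher and 26.0% lower (5 and 7 on log2(FPKM + 1), 6 and 7 on log2(FPKM + 0.1)). P5 iMGCs against the same D150-ROs gave 8 higher and 5 lower of 19 tested, against 46.7% of all genes, 21.1% higher and 25.6% lower. P5 against P1 iMGCs gave 1 higher and 1 lower of 20 tested, against 4.46% of all genes, 2.64% higher and 1.83% lower.

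The median log2 fold change of the members tested was 0.84 from hiPSCs to D70-ROs, -0.32 from D70-ROs to D150-ROs, 0.53 from D150-ROs to P1 iMGCs and 0.03 from P1 to P5, beside medians of all genes of 0.02, -0.01, -0.07 and -0.0004. Members that were tested only because they were high in 1 group had to differ, so these counts and medians are descriptions of the genes that passed the filter.

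**Figure D1:**
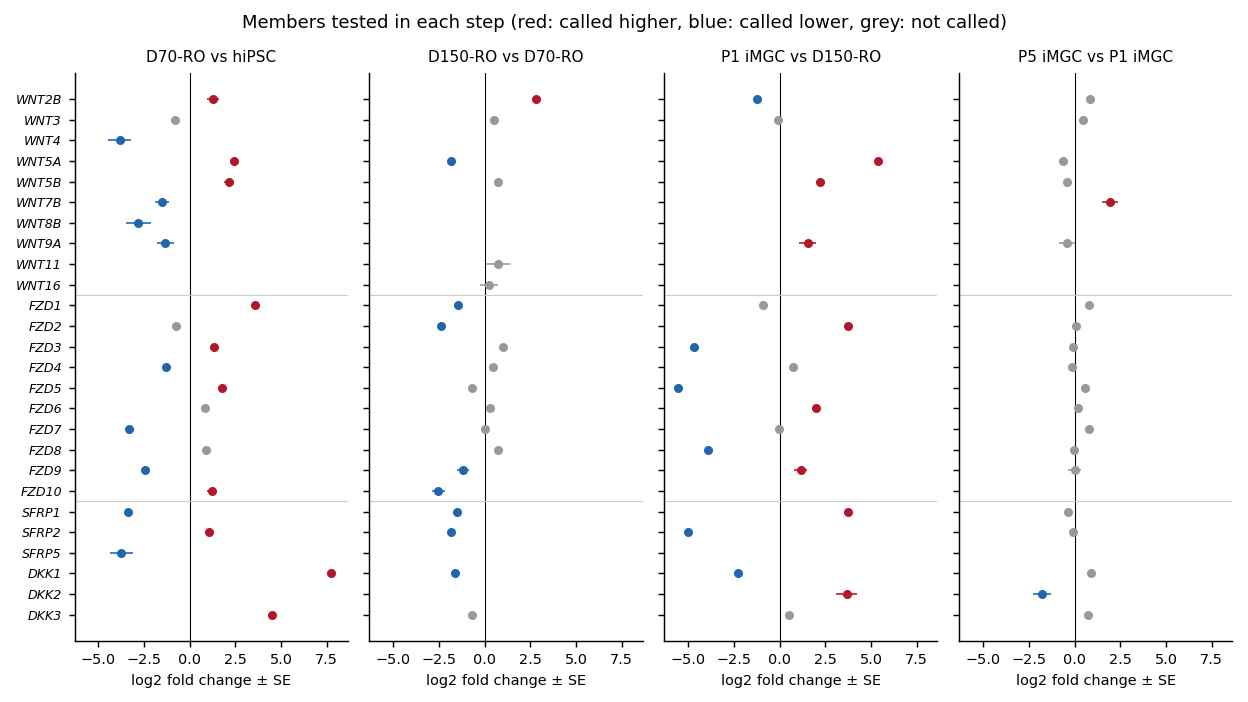
Log2 fold change with its standard error (x axis) of each member tested (y axis, grey lines part ligands, receptors and inhibitors) in 4 consecutive comparisons, from edgeR fits with 3 libraries per group. Red and blue points were called higher and lower in the first-named group, and only WNT7B and DKK2 were called between P5 and P1.

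Among the ligands, transcripts of WNT5A and WNT5B made up most of the family in every group but the hiPSCs, and both were highest in the iMGCs. These ligands are best known for β-catenin-independent signalling. Their joint share of the FPKM of all 19 ligands was 32.3% ± 3.41 (SD, n = 3) in hiPSCs, 81.3% ± 1.94 in D70-ROs, 67.1% ± 1.39 in D150-ROs, 97.5% ± 0.0324 in P1 and 94.6% ± 0.0800 in P5 iMGCs. The summed FPKM of the ligands was 6.75 ± 0.894, 14.7 ± 0.714, 20.4 ± 0.659, 106 ± 0.577 and 70.3 ± 1.96 in the same order.

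WNT5A stood at 1.18, 1.23 and 0.85 FPKM in the hiPSC libraries, at 6.21, 4.61 and 6.58 in D70-ROs and at 2.04, 2.03 and 2.44 in D150-ROs. In iMGCs it was at 69.6, 69.8 and 70.3 FPKM in P1 and at 44.5, 40.8 and 41.9 in P5. No library of one of these groups reached into the range of the next. WNT5A rose from hiPSCs to D70-ROs (log2 fold change 2.40 ± 0.18 SE, adjusted p = 4.82e-07), fell from there to D150-ROs (-1.84 ± 0.14, adjusted p = 4.17e-06) and rose from D150-ROs to P1 iMGCs (5.37 ± 0.06, adjusted p = 4.28e-20). From P1 to P5 its log2 difference was -0.65 ± 0.04 (adjusted p = 1.34e-12), below the 2-fold limit.

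WNT5B stood at 1.34, 1.18 and 0.81 FPKM in hiPSCs, at 5.05, 8.16 and 5.25 in D70-ROs and at 11.9, 11.3 and 11.3 in D150-ROs. Its iMGC values were 33.1, 34.1 and 33.2 FPKM in P1 and 23.8, 23.9 and 24.6 in P5. The gene thus did not share the lower level that WNT5A had in D150-ROs. WNT5B rose from hiPSCs to D70-ROs (2.15 ± 0.27, adjusted p = 2.56e-05) and from D150-ROs to P1 iMGCs (2.22 ± 0.07, adjusted p = 1.01e-14). The log2 differences between D70-ROs and D150-ROs (0.75 ± 0.17, adjusted p = 0.00364) and between P1 and P5 (-0.39 ± 0.06, adjusted p = 4.81e-06) were below 2-fold. The ratio of WNT5A to WNT5B in FPKM was 0.171 to 0.217 in the D150-RO libraries, 2.04 to 2.12 in P1 and 1.71 to 1.87 in P5. In D70-RO replicate 2 it was 0.565, against 1.23 and 1.25 in the other D70-ROs.

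Because WNT5A and WNT5B were the ligands that carried the family, the RefSeq sequences (GRCh38.p14) of the 250 bases before their annotated starts are shown, 5′ to 3′ on the strand of the gene. WNT5A lies on the minus strand of chromosome 3 and WNT5B on the plus strand of chromosome 12, and each has 2 starts in the table. The gene-level counts do not say which start was used. Capitals mark GC boxes (GGGCGG or its complement CCGCCC), the only letters among those searched that occurred in these windows; the second WNT5A window and the first WNT5B window held none.
WNT5A upstream start, chr3:55487307-55487556: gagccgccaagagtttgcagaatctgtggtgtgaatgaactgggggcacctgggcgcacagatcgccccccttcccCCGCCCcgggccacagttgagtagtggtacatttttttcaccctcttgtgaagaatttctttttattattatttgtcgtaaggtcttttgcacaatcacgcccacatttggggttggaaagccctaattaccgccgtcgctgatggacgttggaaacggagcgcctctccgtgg
WNT5A downstream start, chr3:55481399-55481648: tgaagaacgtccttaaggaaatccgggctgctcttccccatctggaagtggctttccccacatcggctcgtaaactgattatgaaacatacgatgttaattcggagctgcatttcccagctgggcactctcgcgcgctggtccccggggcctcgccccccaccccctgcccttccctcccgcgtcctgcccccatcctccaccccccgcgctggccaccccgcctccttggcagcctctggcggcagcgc
WNT5B upstream start, chr12:1616806-1617055: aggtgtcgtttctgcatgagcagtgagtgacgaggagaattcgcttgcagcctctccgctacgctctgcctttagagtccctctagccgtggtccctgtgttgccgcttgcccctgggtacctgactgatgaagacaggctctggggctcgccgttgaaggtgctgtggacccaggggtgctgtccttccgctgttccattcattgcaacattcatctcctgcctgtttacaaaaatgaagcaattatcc
WNT5B downstream start, chr12:1628981-1629230: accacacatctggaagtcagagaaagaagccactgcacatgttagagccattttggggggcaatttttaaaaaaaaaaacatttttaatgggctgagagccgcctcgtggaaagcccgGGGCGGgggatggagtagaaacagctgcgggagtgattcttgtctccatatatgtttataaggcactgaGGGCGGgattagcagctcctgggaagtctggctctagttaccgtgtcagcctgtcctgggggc
The letters searched, on both strands, were CTTTGA for TCF/LEF factors, TGANTCA for AP-1, GGAATG for TEAD factors and GGGCGG for the GC box. In all 35116 windows of this length in the table they occurred in 11.2%, 6.57%, 11.9% and 42.6%. Promoter windows were found for 25 of the 37 members, 28 windows in all, of which 1, 0, 1 and 23 held them. A match is a description of these letters only.

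WNT2B and WNT3 were the other ligands with a mean of at least 1 FPKM in any group. WNT2B, a ligand known from the rim of the developing eye cup, was the only member called higher at day 150 than at day 70 of the ROs. Its FPKM was 0.62, 0.24 and 0.33 in D70-ROs, 4.13, 3.62 and 3.32 in D150-ROs, 0.95, 0.88 and 1.21 in P1 and 1.98, 1.65 and 1.46 in P5 iMGCs. The log2 fold changes were 2.84 ± 0.22 (adjusted p = 5.58e-06) from D70-ROs to D150-ROs and -1.22 ± 0.13 (adjusted p = 2.40e-07) from D150-ROs to P1 iMGCs, but -0.35 ± 0.11 for P5 against D150-ROs, which was not called. Exons of WNT2B overlap ST7L on the other strand, and whether the libraries kept strand is not given in the sources used here. WNT3, a ligand of the β-catenin route, lay between 0.97 and 1.94 FPKM in all 15 libraries and was called in no comparison.

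The remaining 15 ligands averaged below 1 FPKM in every group. WNT4, WNT7B, WNT8B and WNT9A were the ones called lower in both D70-ROs and D150-ROs than in hiPSCs. In the hiPSC libraries WNT4 was at 1.09, 0.93 and 0.46 FPKM, WNT7B at 0.43, 0.53 and 0.60, WNT8B at 0.47, 0.50 and 0.32 and WNT9A at 0.50, 0.51 and 0.37. None of the 4 was called in either comparison on log2(FPKM + 1), a scale that understates the change of low genes, and the call of WNT9A in D70-ROs was lost without hiPSC replicate 1, without hiPSC replicate 2 and without D70-RO replicate 1. WNT7B was the member called higher in P5 than in P1 iMGCs, at 0.23, 0.48 and 0.53 against 0.16, 0.12 and 0.04 FPKM (1.94 ± 0.44, adjusted p = 0.00138). WNT9A was called higher in P1 than in D150-ROs (1.54 ± 0.47, adjusted p = 0.00587), although its FPKM of 0.17, 0.24 and 0.17 overlapped that of D150-ROs (0.07, 0.17 and 0.08), and it was not called on either FPKM scale or with P5 in place of P1. WNT11, at 0.03, 0 and 0.15 FPKM in hiPSCs and 0.30, 0.44 and 0.41 in D150-ROs, was called higher in the latter (2.24 ± 0.73, adjusted p = 0.0105), but no longer without hiPSC replicate 1.

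Several ligands had no count at all in some groups. WNT1 had none in any library. WNT3A had 12 counts over the hiPSC libraries and none in the other groups, at least 3.69-fold more than in D70-ROs when 3 counts over a group are taken as the limit of a count of 0. WNT16 had 37 counts over the D150-ROs and none in P1 iMGCs, at least 8.15-fold lower in P1. WNT6, WNT7A, WNT8A and WNT10A did not exceed 0.10 FPKM in any library, nor did WNT2 exceed 0.18, WNT10B 0.32 or WNT9B 0.42.

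**Figure D2:**
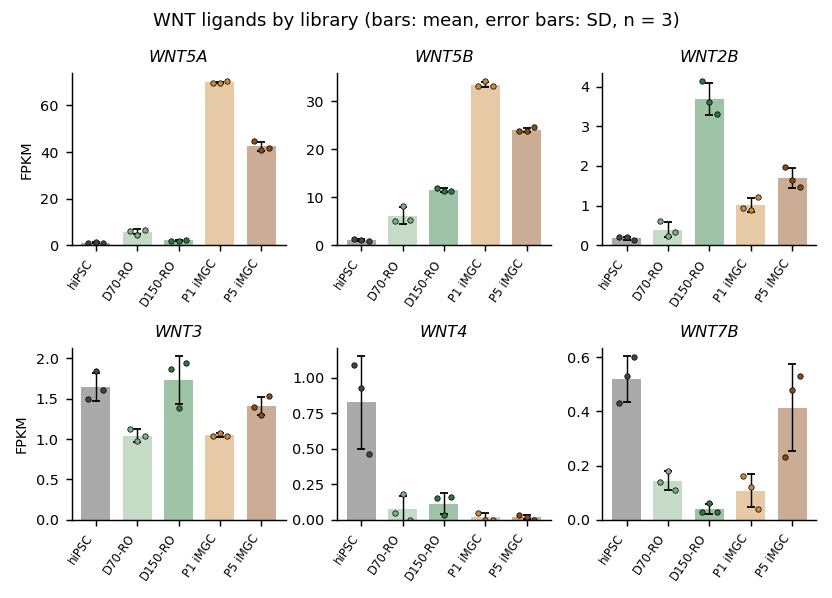
FPKM (y axis, linear and different in each panel) of 6 WNT ligands in the 15 libraries by group (x axis), with bars for the mean and error bars for the SD of 3 libraries. WNT5A and WNT5B reach 69.9 and 33.5 FPKM in P1 iMGCs, while WNT4 and WNT7B stay near or below 1 FPKM in all groups.

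The leading receptor differed between hiPSCs, ROs and iMGCs. FZD7 held 53.0% of the FPKM of the 10 frizzled genes in hiPSCs, FZD5 held 44.0% in D70-ROs and 35.9% in D150-ROs, and FZD2 held 54.4% in P1 and 49.3% in P5 iMGCs. FZD3, FZD5 and FZD8 together made up 72.7% ± 0.717 in D150-ROs and 2.72% ± 0.320 in P1 iMGCs, and FZD2 and FZD6 together 11.9% ± 0.127 and 83.2% ± 0.797 (SD, n = 3). Such shares are taken within a library and do not depend on how libraries are scaled. The sum of the family does: it was 131 ± 11.0 FPKM in hiPSCs, 111 ± 2.88 in D70-ROs, 99.4 ± 4.43 in D150-ROs, 65.6 ± 0.592 in P1 and 71.9 ± 3.13 in P5, but 250 ± 21.0, 198 ± 4.35, 251 ± 5.28, 155 ± 2.94 and 170 ± 6.25 when each library was rescaled to the same total (TPM), so that D150-ROs lay below D70-ROs on one scale and above them on the other.

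FZD7, a receptor known from pluripotent cells, stood at 66.3, 79.2 and 63.9 FPKM in hiPSCs and at 7.12, 8.54 and 7.59 in D70-ROs, where it had fallen (-3.32 ± 0.15, adjusted p = 7.35e-09). In D150-ROs it was at 8.15, 9.95 and 9.97 FPKM, in P1 iMGCs at 5.70, 5.64 and 6.11 and in P5 at 10.3, 9.19 and 9.73. After the hiPSC stage FZD7 thus stayed between 5.64 and 10.3 FPKM and was not called again between consecutive groups. P5 and P1 differed by 0.81 ± 0.07 on the log2 scale (adjusted p = 1.42e-09).

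FZD5, which in vertebrate eyes is a receptor of the optic cup and the early NR, stood at 13.4, 12.6 and 12.1 FPKM in hiPSCs, at 46.3, 49.9 and 49.97 in D70-ROs and at 36.0, 36.4 and 34.6 in D150-ROs. All 6 iMGC libraries held between 0.47 and 0.83 FPKM. It rose from hiPSCs to D70-ROs (1.79 ± 0.11, adjusted p = 7.69e-08) and fell from D150-ROs to P1 iMGCs (-5.55 ± 0.07, adjusted p = 3.53e-19), the largest fall among the members tested there. FZD5 was also called higher in D150-ROs than in hiPSCs (1.12 ± 0.08, adjusted p = 5.20e-08), but with the trend on transcript length removed the difference was 0.16 and not called.

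FZD8 stood at 4.54, 5.01 and 4.09 FPKM in hiPSCs, at 9.30, 10.2 and 8.15 in D70-ROs, at 15.4, 20.6 and 17.4 in D150-ROs and at 0.59 to 0.92 in the iMGCs. This receptor is closely related to FZD5. Neither step up to D150-ROs reached 2-fold in the count fit, but D150-ROs were above hiPSCs by 1.60 ± 0.13 (adjusted p = 1.26e-07), and P1 iMGCs were below D150-ROs by 3.90 on the log2 scale (-3.90 ± 0.14, adjusted p = 6.50e-14).

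FZD3, a receptor of the planar polarity route in neurons, stood at 6.24, 7.15 and 4.62 FPKM in hiPSCs, at 9.10, 5.36 and 11.0 in D70-ROs, at 18.4, 18.7 and 19.2 in D150-ROs and at 0.47 to 0.91 in the iMGCs. The ranges of hiPSCs and D70-ROs overlapped through D70-RO replicate 2. FZD3 fell from D150-ROs to P1 iMGCs (-4.66 ± 0.07, adjusted p = 5.76e-19). Its calls in the organoids depended on the processing: the rise of 1.34 ± 0.19 from hiPSCs to D70-ROs was 0.40 on log2(FPKM + 1) and not called, and the step of 0.99 ± 0.17 from D70-ROs to D150-ROs was -0.045 with the length trend removed and 1.13 and called without D70-RO replicate 3.

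To see what lies before the start of the receptor with the largest fall in iMGCs, the 250 bases before the start of FZD5, on the minus strand of chromosome 2, are given below from the same RefSeq table. Capitals mark 6 GC boxes, 2 of which overlap at the end of the window, and none of the other letters searched occurred.
FZD5, chr2:207769907-207770156: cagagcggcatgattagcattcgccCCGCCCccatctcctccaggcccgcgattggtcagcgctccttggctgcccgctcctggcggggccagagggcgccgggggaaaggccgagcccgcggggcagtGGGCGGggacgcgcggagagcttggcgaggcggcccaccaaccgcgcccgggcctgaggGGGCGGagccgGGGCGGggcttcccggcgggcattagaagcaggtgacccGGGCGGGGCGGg

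FZD2 and FZD6 went the other way. FZD2 stood at 28.2, 31.1 and 28.6 FPKM in hiPSCs, at 18.4, 22.5 and 16.4 in D70-ROs and at 4.11, 4.52 and 4.14 in D150-ROs. It was back at 36.1, 36.1 and 34.9 FPKM in P1 and at 32.8, 39.4 and 34.2 in P5 iMGCs. FZD2 fell from D70-ROs to D150-ROs (-2.40 ± 0.16, adjusted p = 1.85e-06) and rose from D150-ROs to P1 iMGCs (3.72 ± 0.07, adjusted p = 2.76e-17). P1 and P5 libraries overlapped, with a log2 difference of 0.05 ± 0.06.

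FZD6, a planar polarity receptor, stood at 3.40, 1.92 and 2.56 FPKM in hiPSCs, at 6.38, 5.35 and 4.26 in D70-ROs and at 7.22, 7.65 and 7.67 in D150-ROs. In the iMGCs it was at 19.2, 19.0 and 18.6 FPKM in P1 and at 20.5, 20.1 and 20.9 in P5. Only the step to P1 iMGCs was called between consecutive groups (1.99 ± 0.06, adjusted p = 1.77e-14). The difference of 0.84 ± 0.23 between hiPSCs and D70-ROs became 1.06 and called without hiPSC replicate 1. An antisense gene, BAALC-AS1, overlaps exons of FZD6.

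FZD1 was a receptor of the D70-ROs, at 0.70, 0.81 and 0.61 FPKM in hiPSCs, at 9.18, 8.69 and 9.61 in D70-ROs and at 3.67, 4.11 and 3.80 in D150-ROs. P1 iMGCs held 1.36, 1.20 and 1.33 FPKM and P5 2.14, 2.16 and 2.25. It rose from hiPSCs to D70-ROs (3.55 ± 0.16, adjusted p = 8.50e-09) and fell to D150-ROs (-1.48 ± 0.09, adjusted p = 1.40e-06). The further difference of -0.92 ± 0.10 in P1 iMGCs was not called in the count fit, but was -1.02 and called with upper-quartile scaling.

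The other 3 receptors stayed below 4 FPKM in all libraries. FZD4, a receptor for norrin in retinal vessels, lay between 0.89 and 2.24 FPKM in all 15 libraries and was called in 1 comparison, as lower in D70-ROs than in hiPSCs (-1.28 ± 0.17, adjusted p = 3.76e-05, not called on log2(FPKM + 1)). D150-ROs against hiPSCs gave -0.80 ± 0.13, called only with the length trend removed. Its exons overlap PRSS23 on the other strand. FZD9 was at 3.61, 2.73 and 2.85 FPKM in hiPSCs and at 0.29 to 0.69 in all later libraries. It was called higher in P1 iMGCs than in D150-ROs (1.15 ± 0.36, adjusted p = 0.00664), but on neither FPKM scale. FZD10 was at 1.19, 1.75 and 1.30 FPKM in D70-ROs and at 0.41, 0.26 and 0.17 in D150-ROs (-2.55 ± 0.36, adjusted p = 1.84e-04). No count of FZD10 was seen in the iMGCs, so P1 was at least 9.69-fold lower than D150-ROs.

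**Figure D3:**
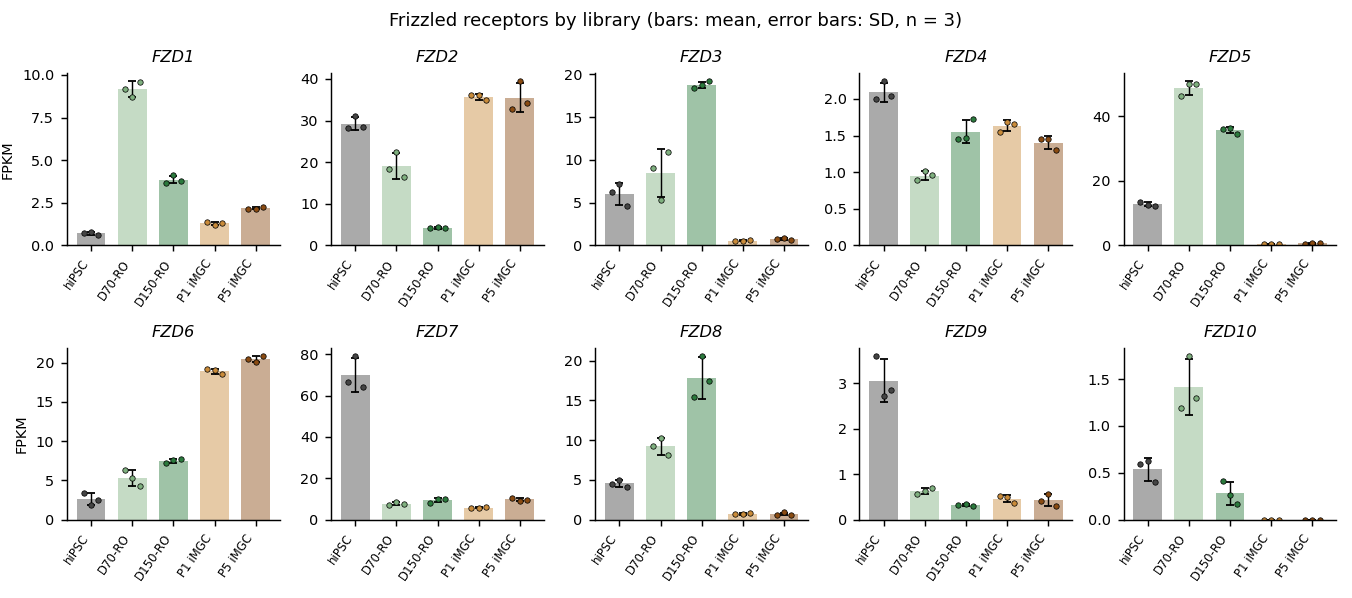
FPKM (y axis, linear and different in each panel) of the 10 frizzled genes in the 15 libraries by group (x axis), with bars for the mean and error bars for the SD of 3 libraries. FZD3, FZD5 and FZD8 are high in D150-ROs and below 1 FPKM in the iMGCs, where FZD2 and FZD6 stand at 35.7 and 18.9 FPKM in P1.

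**Figure D4:**
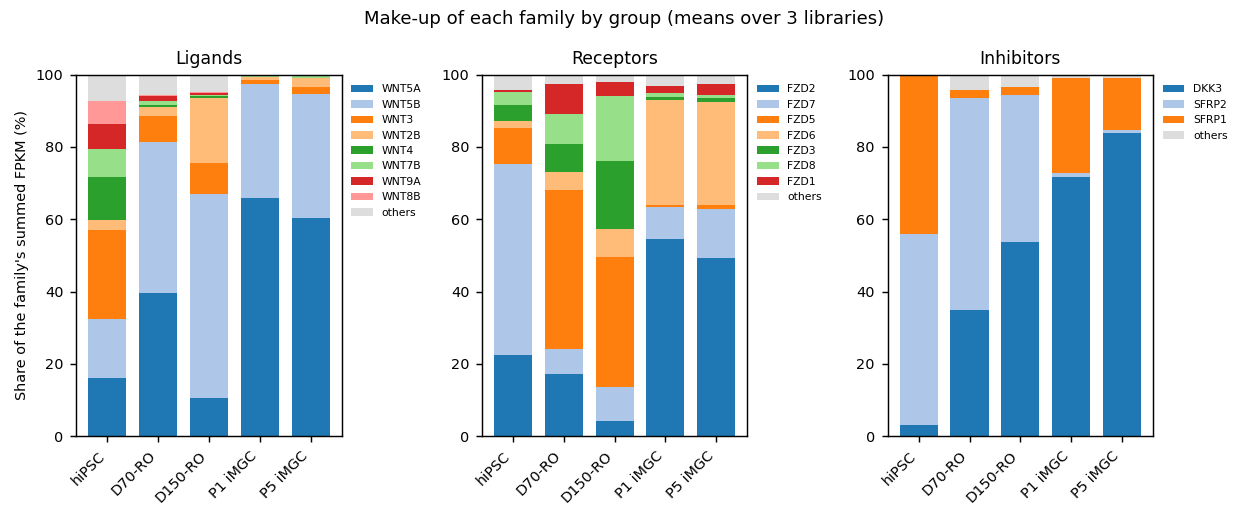
Share in percent (y axis) of each gene in the summed FPKM of its family by group (x axis), as means over 3 libraries, with genes that never reach 5% joined as others. In the iMGCs WNT5A with WNT5B, FZD2 with FZD6, and DKK3 with SFRP1 fill most of their families.

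The inhibitors were by far the most abundant members per length, with a summed FPKM of 523 ± 29.7 in hiPSCs, 1103 ± 49.2 in D70-ROs, 510 ± 17.9 in D150-ROs, 344 ± 8.20 in P1 and 465 ± 5.09 in P5 iMGCs. On the TPM scale the sums were 997 ± 61.2, 1973 ± 63.2, 1289 ± 16.4, 812 ± 16.5 and 1098 ± 19.7, so that D150-ROs and P5 lay below hiPSCs on one scale and above them on the other. Their make-up moved from SFRP genes to DKK3. SFRP1 and SFRP2 held 96.6% ± 0.555 of the family's FPKM in hiPSCs, SFRP2 and DKK3 held 94.4% ± 0.687 in D150-ROs, and SFRP1 and DKK3 held 97.96% ± 0.0738 in P1 iMGCs.

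SFRP1 stood at 244, 234 and 208 FPKM in hiPSCs, at 24.3, 27.0 and 24.0 in D70-ROs and at 9.89, 10.4 and 10.6 in D150-ROs. It was at 93.1, 87.9 and 91.5 FPKM in P1 iMGCs and at 66.3, 66.7 and 68.1 in P5. The gene fell at both organoid steps (-3.37 ± 0.13, adjusted p = 2.59e-09, and -1.52 ± 0.09, adjusted p = 1.40e-06) and rose in P1 iMGCs (3.76 ± 0.05, adjusted p = 3.54e-19). Between P1 and P5 its log2 difference was -0.37 ± 0.04 (adjusted p = 2.69e-08), below 2-fold.

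SFRP2 stood at 269, 299 and 263 FPKM in hiPSCs, at 689.8, 649 and 601 in D70-ROs and at 194, 222 and 209 in D150-ROs. In the iMGC libraries it lay between 2.81 and 4.58 FPKM. SFRP1 and SFRP2, which are close relatives, thus went opposite ways between D150-ROs and iMGCs. SFRP2 rose to D70-ROs (1.07 ± 0.11, adjusted p = 6.69e-06), fell to D150-ROs (-1.87 ± 0.09, adjusted p = 4.29e-07) and fell again to P1 iMGCs (-5.01 ± 0.07, adjusted p = 5.76e-19).

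DKK1, an inhibitor of the LRP co-receptors that is itself induced by β-catenin signalling, stood at 0.25, 0.18 and 0.16 FPKM in hiPSCs, at 53.9, 38.0 and 49.8 in D70-ROs and at 13.3, 20.2 and 19.8 in D150-ROs. P1 iMGCs held 2.23, 2.30 and 2.42 FPKM and P5 4.67, 4.26 and 3.54. Its rise of 7.72 ± 0.23 to D70-ROs (adjusted p = 6.61e-10) was the largest change among the members tested there. It fell to D150-ROs (-1.64 ± 0.17, adjusted p = 3.19e-05) and again to P1 iMGCs (-2.28 ± 0.16, adjusted p = 8.46e-10). P5 was above P1 by 0.91 ± 0.15 (adjusted p = 5.90e-05), which became 1.00 and called without P5 replicate 3. DKK1 was the member whose promoter window held the letters of the TCF/LEF factors and of the TEAD factors, and it was chosen for printing after this was seen. The window lies on the plus strand of chromosome 10, and capitals mark every match, 2 of TCF/LEF (TCAAAG and CTTTGA), 1 of TEAD (GGAATG) and 1 GC box.
DKK1, chr10:52314031-52314280: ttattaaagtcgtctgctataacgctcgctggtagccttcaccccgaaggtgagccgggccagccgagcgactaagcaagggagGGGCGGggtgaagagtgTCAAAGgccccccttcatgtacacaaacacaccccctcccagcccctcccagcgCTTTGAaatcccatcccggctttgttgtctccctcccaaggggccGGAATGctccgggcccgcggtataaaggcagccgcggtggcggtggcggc

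DKK3, a DKK relative that does not act on LRP co-receptors in the way DKK1 does, stood at 15.2, 14.5 and 17.3 FPKM in hiPSCs, at 379, 398 and 374 in D70-ROs and at 274, 275 and 269.9 in D150-ROs. P1 iMGCs held 243, 241 and 254 FPKM and P5 395, 391 and 384, and it had the highest mean of all 37 members in both passages. DKK3 rose from hiPSCs to D70-ROs (4.50 ± 0.12, adjusted p = 4.04e-10) and was higher in P5 iMGCs than in D150-ROs (1.26 ± 0.05, adjusted p = 1.15e-13). Between P1 iMGCs and D150-ROs the sign depended on the scale, with 0.53 ± 0.05 in the count fit and -0.15 on log2(FPKM + 1). P5 exceeded P1 by 0.73 ± 0.04 (adjusted p = 5.90e-14), below 2-fold.

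Of the 4 low inhibitors, SFRP5 was at 1.25, 1.41 and 1.95 FPKM in hiPSCs and at most 0.21 in any later library. DKK2 was the member called lower in P5 than in P1 iMGCs, at 0.17, 0.03 and 0.10 against 0.67, 0.38 and 0.39 FPKM (-1.78 ± 0.49, adjusted p = 0.00609), and the call was not made on log2(FPKM + 1). It was also called higher in P1 than in D150-ROs, at 0.05, 0.08 and 0.02 FPKM (3.66 ± 0.56, adjusted p = 1.05e-05). With 7 counts over the D150-ROs it passed that filter through its level in P1, so that it had to be higher there. DKK4 was seen in hiPSCs only, with 14 counts over the group. SFRP4 did not exceed 0.41 FPKM.

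**Figure D5:**
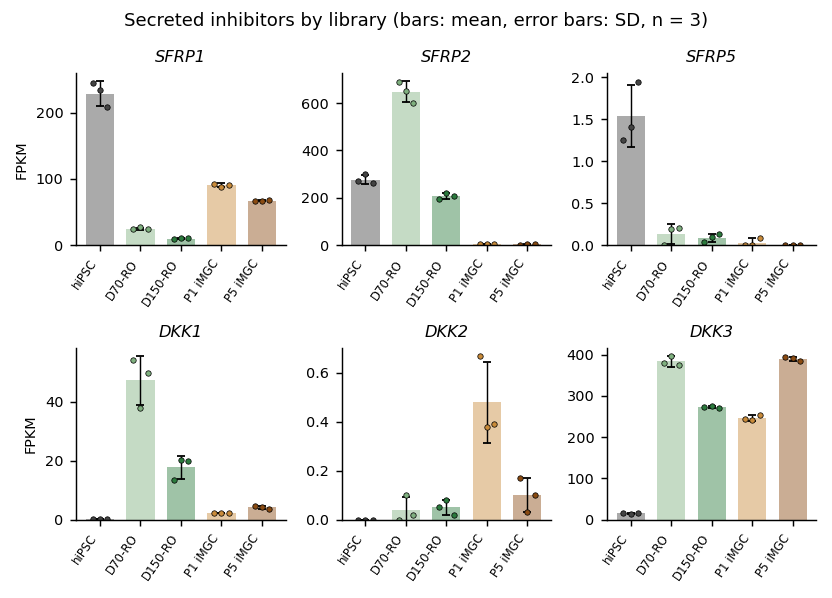
FPKM (y axis, linear and different in each panel) of 6 secreted inhibitors in the 15 libraries by group (x axis), with bars for the mean and error bars for the SD of 3 libraries. SFRP2 drops from 208 FPKM in D150-ROs to 4.10 in P1 iMGCs while SFRP1 goes from 10.3 to 90.9.

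The rest of the pathway was followed in 53 further genes. From hiPSCs to D70-ROs 13 were called higher and 13 lower of 49 tested, beside 46.0% of all genes called. From D70-ROs to D150-ROs there were 7 and 7 of 47, beside 34.7% (7 and 4 on log2(FPKM + 1), 5 and 10 with the length trend removed), and from hiPSCs to D150-ROs 12 and 13 of 50, beside 59.9% (13 and 22 with the length trend removed). P1 iMGCs against D150-ROs gave 8 and 19 of 46, beside 46.4% (6 and 25 on log2(FPKM + 1), 6 and 28 on log2(FPKM + 0.1)), and P5 against P1 gave 1 and 3 of 37, beside 4.46%. By direction, 23.5% of all genes were called higher and 22.5% lower from hiPSCs to D70-ROs, and 17.4% each from D70-ROs to D150-ROs. The shares were 30.3% and 29.6% from hiPSCs to D150-ROs, 20.4% and 26.0% for P1 against D150-ROs, and 2.64% and 1.83% for P5 against P1. As with the members, the counts of pathway genes describe those that passed the filter.

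Both genes of ligand secretion were tested between D150-ROs and P1 iMGCs. WLS, the carrier that brings WNT proteins to the cell surface, was at 0.33, 0.54 and 0.50 FPKM in D150-ROs and at 56.6, 57.6 and 63.2 in P1 iMGCs (7.91 ± 0.09, adjusted p = 9.84e-20). It stayed at 49.4, 44.9 and 48.5 FPKM in P5. Like WNT5A and WNT5B, it was thus higher in every iMGC library than in any hiPSC or RO library, where it did not exceed 1.90. PORCN, the enzyme that adds the lipid to WNT proteins, went from 13.6 to 4.54 FPKM (-1.01 ± 0.13, adjusted p = 1.52e-06), and it was no longer called without D150-RO replicate 2, P1 replicate 2 or P1 replicate 3, with P5 in place of P1, or with all 15 libraries in 1 fit.

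Of the 8 co-receptors and related genes, PTK7 and ROR1 were called higher and ROR2, KREMEN1 and KREMEN2 lower in P1 iMGCs than in D150-ROs. Among all genes 46.4% were called in this comparison, 20.4% higher and 26.0% lower. PTK7, a planar polarity co-receptor, was at 15.7, 16.9 and 15.3 FPKM in D150-ROs and at 132, 143 and 133 in P1 (3.85 ± 0.06, adjusted p = 8.02e-19). ROR2, a receptor of WNT5A, was at 6.28, 5.73 and 7.15 FPKM in D150-ROs, at 0.40, 0.27 and 0.35 in P1 and at 0.06, 0.03 and 0.03 in P5. KREMEN1, a partner of DKK1 at the LRP co-receptors, went from 30.9 to 1.55 FPKM (-3.50 ± 0.07, adjusted p = 3.87e-17).

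Among 7 planar polarity genes, PRICKLE1, CELSR1 and VANGL1 were called higher and CELSR3 lower in P1 iMGCs. The shares of all genes were again 20.4% higher and 26.0% lower. PRICKLE1 was at 0.94, 0.87 and 0.69 FPKM in D150-ROs and at 49.1, 53.2 and 50.1 in P1 (6.74 ± 0.10, adjusted p = 8.02e-19). CELSR1 went from 4.84 to 20.2 FPKM (2.74 ± 0.05, adjusted p = 1.90e-17), and CELSR3 from 12.5 to 1.97 (-2.01 ± 0.06, adjusted p = 1.66e-14).

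Of the 10 other secreted modulators, 5 passed the filter between D150-ROs and P1 iMGCs, and they passed through their level in D150-ROs, so that they had to be lower in P1. RSPO3, an R-spondin that did not pass, had 20 counts over P1 and 1 over D150-ROs (30.3-fold, 95% counting interval 4.84 to 1260). WIF1, a secreted protein that binds WNT ligands, was at 142, 149 and 129 FPKM in D150-ROs and had no count in any iMGC library, at least 3150-fold lower in P1. In D70-ROs WIF1 ranged widely, at 5.05, 20.9 and 1.24 FPKM, and across the same libraries the optic stalk gene PAX2 was at 16.9, 29.3 and 5.67. In the same library order, GFAP of the astrocyte and optic stalk marker list was at 0.56, 0.22 and 1.03 FPKM. S100B of that list was at 0.64, 0.59 and 0.44 FPKM and AQP4 at 0.07, 0.08 and 0.05. The list thus did not move as a set with WIF1. The part of PAX2-positive cells in the WIF1 values was not tested. FRZB, another SFRP relative, went from 8.26 to 0.10 FPKM (-5.68 ± 0.24, adjusted p = 9.03e-13).

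The list of genes often used as readouts of β-catenin signalling held 9, of which 8 were tested between D150-ROs and P1 iMGCs. LEF1, NKD1, NKD2, APCDD1 and AXIN2 were called lower, and CCND1 and MYC, which many other signals also drive, were called higher. Of all genes tested there, 20.4% were called higher and 26.0% lower. NKD1, NKD2 and APCDD1 had 4, 0 and 0 counts over P1. They passed the filter through their level in D150-ROs, so that they had to be lower in P1. LEF1 was at 7.56, 8.39 and 6.63 FPKM in D150-ROs and at 0.38, 0.88 and 0.21 in P1 (-3.14 ± 0.22, adjusted p = 8.14e-10). MYC went from 6.77 to 44.2 FPKM (3.53 ± 0.07, adjusted p = 3.02e-17) and CCND1 from 27.7 to 89.96 (2.35 ± 0.07, adjusted p = 1.50e-14). The cytoplasmic relay list held 9 genes: DVL1, DVL2, DVL3, AXIN1, APC, GSK3A, GSK3B, CSNK1A1 and CTNNB1. None of them was called in that comparison by edgeR or DESeq2. In edgeR 7 of them had an adjusted p below 0.05, but their changes were below 2-fold. On the FPKM scales limma called 3 on log2(FPKM + 1) and 4 on log2(FPKM + 0.1). In the organoids APC was called higher at both steps (2.08 ± 0.30 and 2.02 ± 0.26). AXIN1 was called lower from D70-ROs to D150-ROs (-1.08 ± 0.14), and GSK3B higher in D150-ROs than in hiPSCs (1.19 ± 0.09). From D70-ROs to D150-ROs edgeR called 2 relay genes, beside 34.7% of all genes, and limma 1 on either FPKM scale.

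In the organoids, LGR4 and LGR5, receptors of the R-spondins, which strengthen WNT signalling, were higher than in hiPSCs. LGR5 was at 0.03, 0.14 and 0.07 FPKM in hiPSCs, at 7.47, 5.00 and 8.68 in D70-ROs and at 8.27, 7.80 and 8.04 in D150-ROs (6.47 ± 0.32 for D70-ROs against hiPSCs, adjusted p = 1.80e-08). In P1 iMGCs it was at 0.80, 0.79 and 0.56 FPKM (-2.73 ± 0.13 against D150-ROs, adjusted p = 4.74e-12). TCF7L1, a TCF factor known as a repressor in pluripotent cells, went from 95.5 FPKM in hiPSCs to 13.9 in D70-ROs (-2.93 ± 0.19, adjusted p = 1.10e-07).

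Between the passages 4 of 37 pathway genes tested were called, where 4.46% of all genes were. TCF7L1 was the pathway gene called higher in P5, at 3.52, 4.62 and 4.07 against 1.60, 1.98 and 2.00 FPKM (1.19 ± 0.14, adjusted p = 2.83e-07), and KREMEN2, LGR5 and ROR2, all below 1 FPKM in both passages, were called lower.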

How the data were processed

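Poly(A) RNA of 15 libraries in 5 groups of 3 was compared. Per the labels and methods, HISAT2 alignment, StringTie assembly and RSEM quantification were done by the authors. Versions, genome build and annotation are not given in the sources used here. The deposited values are expected counts, without normalization, and FPKM, scaled by the authors for length and mapped reads. The 12 sample columns of another deposited table were not used, since its iMGC columns name no passage. All 19684 gene identifiers are in GENCODE 29, which was used for symbols, positions and overlaps. Transcript lengths for the length correction were those implied by the deposited counts, FPKM and library totals.

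Expected counts were rounded (8.21% to 10.1% were not whole) and tested with edgeR 4.0.16 (TMM factors, filterByExpr, quasi-likelihood test, two-sided, groups compared 2 at a time, Benjamini-Hochberg adjustment over all genes tested) in R 4.3.3. On simulated data 98% to 100% of 200 genes changed 4-fold were recovered over 5 comparisons. Alternatives used upper-quartile scaling, other filters, DESeq2 1.42.0, limma 3.58.1 on log2(FPKM + 1) and log2(FPKM + 0.1), a shared fit, a replicate block, a length correction and left-out libraries. Limits for genes with no count (3 counts over a group) cover counting error only. Every pair of replicates differed by more than sampling noise (chi-square per gene 2.33 to 33.6 over 15 pairs).

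Members and gene lists were chosen with earlier results of these data known. Members with a mean of at least 5 FPKM in a group, or called between passages with at least 1 FPKM, are given in every library, and the others by range or where a count of 5 or fewer names them. Of the other pathway genes, at most the 3 called with the largest change per list and comparison and at least 5 FPKM in 1 group are named, apart from those completing a count.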

Additional observations from a re-analysis of the deposited data

How the results depend on the processing

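Counts of members called kept within 1.5 times of the values given above except in these cases: from hiPSCs to D70-ROs 11 members were called on log2(FPKM + 1) against 19, and between P5 and P1 iMGCs 0 were called with a filter of at least 1 FPKM in 3 libraries and 0 on log2(FPKM + 1), against 2. At an unadjusted p below 0.05 these were 10 of 13 and 12 of 20 tested members, and at an adjusted p below 0.05 they were 10 and 10. WNT7B and DKK2, the 2 members called there, are both below 1 FPKM: the filter removes them, and the pseudocount shrinks their change. edgeR, DESeq2 and limma on log2(FPKM + 0.1) each called 2. Without 1 library, 17 to 20 members were called from hiPSCs to D70-ROs, 9 to 11 from D70-ROs to D150-ROs, 21 to 22 from hiPSCs to D150-ROs, 15 to 17 from D150-ROs to P1 iMGCs and 2 to 3 from P1 to P5. Single log2 fold changes were followed for members with an adjusted p below 0.05 in the main edgeR fit and for named pathway genes. Those of the other members were not counted. Of the values followed under all alternatives, 2189 kept their direction and their side of the limit, 64 were no longer called, 21 became called and 5 changed sign. The sign changes were FZD3 (-0.045) and FZD4 (-0.23) from D70-ROs to D150-ROs and WNT5A (-0.15) from hiPSCs to D150-ROs with the length trend removed, and DKK3 from D150-ROs to P1 iMGCs (-0.15 with either pseudocount). The cause was not tested.

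The replicate numbers were not used as pairs in the main fit. Deviations of equally numbered libraries correlated between -0.02 and 0.167 over 15 pairs of libraries. With 3 libraries per group this cannot decide whether equal numbers share an experiment. With the replicate block 19, 10, 20, 14 and 2 members were called in the 5 comparisons.

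Depth limits the members with few counts: at 11349600 to 20398755 counts per library, ligands without a count are not detectable here rather than absent.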
